A study of Mus musculus with 9 samples.

Results

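The lysyl oxidases and the collagen-modifying hydroxylases are the enzymes that finish a collagen fibre, and 10 of their genes were followed among 55414 listed genes. They were picked out by gene name, as the 5 lysyl oxidases (Lox, Loxl1, Loxl2, Loxl3 and Loxl4), the 3 lysyl hydroxylases (Plod1, Plod2 and Plod3) and 2 catalytic subunits of prolyl 4-hydroxylase (P4ha1 and P4ha2). The list was drawn up with earlier results of these data known. All 10 were found once in each deposited table, and all 10 passed the filter on low counts in every comparison.

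The 9 RNA-seq libraries came from alveolar cells of the lungs of wild-type C57BL/6J males, lifted from frozen tissue by laser capture microdissection and described as mostly fibroblasts. The PDK4-IN group (3 libraries) was taken from aged mice given PDK4-IN, an inhibitor of pyruvate dehydrogenase kinase 4, built on an anthraquinone core; this kinase holds back the entry of pyruvate into the mitochondrial citric acid cycle. They were dosed from 20 months of age at intervals of 2 weeks, over 4 months in all, and taken at 24 months. The Aged group (3 libraries) was taken from mice aged in the same way and given vehicle, and the Young group (3 libraries) from mice whose age the labels do not state. Captured cells were combined before lysis and nothing states that the libraries of a group came from separate animals, so the spread behind each p-value is that of libraries and may be technical. The sheet names inside the deposited tables speak of bleomycin and of PCC1, another compound of the study, whereas the columns and sample labels name these 3 groups. The groups are used here as the labels name them.

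Library totals ran from 19456354 to 26660419 counts. Young replicate 3 stood apart from Young replicates 1 and 2, and PDK4-IN replicate 1 from PDK4-IN replicates 2 and 3. The chi-square per degree of freedom between these libraries and the others of their group was 17.2 to 17.5 and 8.61 to 15.8, against 2.93 for the other Young pair and 4.88 for the other PDK4-IN pair. The libraries also differed in how levels ran with gene length. The slope, in log2 CPM relative to the mean of the 9 libraries per doubling of length, was -0.0059, -0.098 and -0.14 in PDK4-IN, 0.054, 0.067 and 0.060 in Aged and 0.067, 0.060 and -0.062 in Young. The PDK4-IN libraries lay below all Aged ones, and Young replicate 3 lay below the other Young libraries, so values with this trend removed are given below where they change a call or the size. Cell type was checked with marker lists. Of 12 fibroblast markers 11 reached 1 CPM (a gene's count scaled to the total of its library) in each group, with summed levels of 9356 to 9677 CPM in PDK4-IN, 8373 to 8402 CPM in Aged and 10092 to 10165 CPM in Young, while Tcf21, a transcription factor of lung fibroblasts, was under 1 CPM throughout. Of 11 fibroblast markers tested, 3 were higher and 7 lower in Aged over Young. In PDK4-IN over Aged, 6 were higher and 3 lower. Dcn averaged 1520 ± 23.3 CPM in PDK4-IN, 1343 ± 14.7 CPM in Aged and 649 ± 18.5 CPM in Young. Pdgfrb averaged 160 ± 14.3 CPM in PDK4-IN, 123 ± 1.33 CPM in Aged and 239 ± 20.8 CPM in Young. Epithelial markers were uneven. Sftpc and Ager, which define alveolar type 2 and type 1 cells, stayed at or under 1.04 CPM in every library, whereas Pdpn, a type 1 marker, averaged 379 ± 13.4 CPM in PDK4-IN, 329 ± 3.34 CPM in Aged and 233 ± 2.39 CPM in Young, and Abca3, a type 2 marker, averaged 58.0 ± 6.42 CPM in PDK4-IN, 74.8 ± 3.08 CPM in Aged and 67.7 ± 7.08 CPM in Young. The 6 type 1 markers summed to 375 to 402 CPM in PDK4-IN, 334 to 339 CPM in Aged and 249.1 to 258 CPM in Young, and the 6 type 2 markers to 52.2 to 65.4 CPM in PDK4-IN, 73.9 to 79.2 CPM in Aged and 59.9 to 73.2 CPM in Young. Endothelium markers summed to 9.08 to 10.4 CPM in PDK4-IN, 19.7 to 23.9 CPM in Aged and 6.17 to 8.68 CPM in Young, with 4 of 5 tested higher in Aged over Young and 3 of 5 lower in PDK4-IN over Aged. Neutrophil markers summed to 60.4 to 77.6 CPM in PDK4-IN, 139 to 146 CPM in Aged and 8.87 to 11.1 CPM in Young, with 4 of 4 tested higher in Aged over Young, and 1 of 4 higher and 2 lower in PDK4-IN over Aged. Most of the neutrophil sum came from Mmp8 and S100a8, which differed in order. Mmp8 averaged 1.84 ± 0.41 CPM in PDK4-IN, 95.7 ± 2.39 CPM in Aged and 0.33 ± 0.08 CPM in Young. S100a8 averaged 65.6 ± 8.13 CPM in PDK4-IN, 38.0 ± 3.62 CPM in Aged and 9.20 ± 1.20 CPM in Young. S100a9, another neutrophil marker, averaged at most 0.65 CPM in any group. Cd3e, which defines T lymphocytes, averaged at most 0.13 CPM in any group. Monocyte and macrophage markers (12 of 12 tested) summed to 132 to 149 CPM in PDK4-IN, 4652 to 4718 CPM in Aged and 35.5 to 45.9 CPM in Young. All 12 rose in Aged over Young and all 12 fell in PDK4-IN over Aged. Smooth muscle and myofibroblast markers summed to 382 to 434 CPM in PDK4-IN, 385 to 404 CPM in Aged and 1919 to 2117 CPM in Young. The macrophage, neutrophil and endothelium sums were highest in Aged and the fibroblast sum was lowest there. The smooth muscle sum was highest and the type 1 sum lowest in Young. In each case those libraries did not overlap the other groups. Pdpn made up most of the type 1 sum. Aqp5, another type 1 marker, was highest in Young, at 7.92 ± 0.89 CPM in PDK4-IN, 2.80 ± 0.31 CPM in Aged and 16.6 ± 1.71 CPM in Young. Of 5 type 1 markers tested, 1 was higher and 1 lower in Aged over Young. The part of these cell types in the changes described below was not tested. In libraries of mixed cells, fewer cells of a type and less RNA per cell cannot be told apart.

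Collagen is modified in 2 places. Inside the endoplasmic reticulum, prolyl 4-hydroxylase adds hydroxyl groups to proline, which keeps the triple helix stable, and lysyl hydroxylases do the same to lysine, which sets the kind of cross-link that can form later. Both need iron, oxygen, 2-oxoglutarate and ascorbate. Outside the cell, the copper-dependent lysyl oxidases turn lysine and hydroxylysine of collagen, and lysine of elastin, into aldehydes that join neighbouring molecules. Lung is a tissue in which both collagen and elastic fibres bear load, and cross-linking by these enzymes has been studied there in fibrosis and ageing.

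Levels between genes were compared in deposited TPM, which is scaled by transcript length. Lox was the most abundant member in every library, with 651 ± 132 TPM in PDK4-IN, 622 ± 10.96 TPM in Aged and 754 ± 119 TPM in Young (SD, n = 3 each). Loxl4 was the least abundant, with 8.28 ± 1.52 TPM in PDK4-IN, 14.1 ± 0.44 TPM in Aged and 16.4 ± 4.17 TPM in Young. The middle of the order differed between groups. In PDK4-IN, Lox was followed by P4ha2 at 177 ± 1.83 TPM, P4ha1 at 155 ± 6.65 TPM and Plod3 at 148 ± 2.55 TPM, and the libraries of P4ha1 and Plod3 overlapped. In Aged, it was followed by P4ha1 at 183 ± 2.59 TPM and P4ha2 at 179 ± 2.82 TPM, which lay apart by less than 1 TPM at their nearest libraries, and then by Plod3 at 159 ± 11.2 TPM. In Young, Plod3 came second at 178 ± 12.3 TPM, before Loxl1 at 162 ± 12.8 TPM and P4ha1 at 151 ± 10.9 TPM, and each of these overlapped its neighbour. Below them, Loxl2 and Plod1 overlapped in all 3 groups, Plod1 and Plod2 overlapped also in Aged, and in Young the run from Loxl2 through Plod1 and Loxl3 to Plod2 overlapped at each step.

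**Figure D1:**
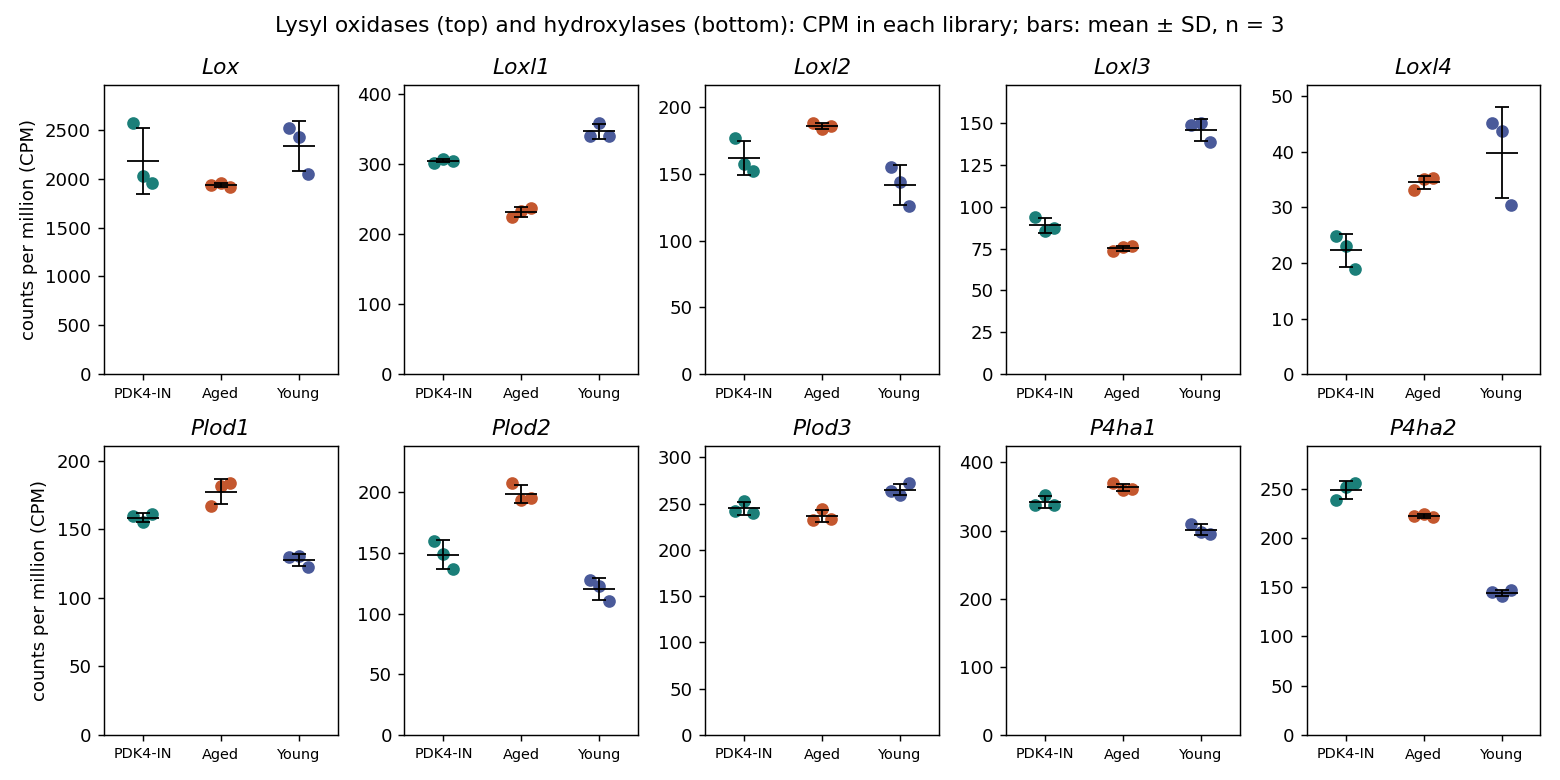
CPM (counts over library totals) of the 5 lysyl oxidases (top row) and 5 hydroxylases (bottom row) in each of the 9 libraries, with PDK4-IN left, Aged middle and Young right; each point is a library, the horizontal line the mean and the error bar the SD (n = 3), and every axis starts at 0. Loxl1 and Loxl3 were lowest in the 3 Aged libraries, Plod2 and Loxl2 were highest in them, P4ha2 was highest in PDK4-IN, and Loxl4 was lowest in PDK4-IN.

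The comparison of Aged with Young addressed natural ageing, and the 2 enzyme classes moved unevenly in it. Of the 10 genes, 5 were higher in Aged (Loxl2, Plod1, Plod2, P4ha1 and P4ha2), 4 were lower (Lox, Loxl1, Loxl3 and Plod3), and Loxl4 did not pass. Among 16123 genes tested with edgeR's quasi-likelihood test, 21.4% were called higher and 19.0% lower, 40.4% in all, at an adjusted p under 0.05 (Benjamini-Hochberg over all genes tested). The median log2 fold change was -0.29 over the 5 lysyl oxidases and 0.46 over the 5 hydroxylases, beside 0.01 over all genes. CPM below is a count over its library total, and fold changes are those of the fit.

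Among the lysyl oxidases, Loxl3 fell most. This member, which carries scavenger receptor domains like Loxl2 and Loxl4, had 73.4, 75.7 and 76.3 CPM in the Aged libraries, against 148.8, 150.2 and 138.4 CPM in the Young libraries. The groups lay far apart. Its log2 fold change was -0.97 ± 0.06 (SE, adjusted p = 2.53e-07 by edgeR). Loxl1, an oxidase tied to elastic fibres in mice, had 224.4, 232.7 and 238.1 CPM in the Aged group, with 341.0, 359.4 and 340.6 CPM in Young. No Aged library reached a Young one, and the log2 fold change was -0.60 ± 0.05 (adjusted p = 5.22e-06, edgeR). Lox, the main oxidase of fibrillar collagen and elastin, had 1936, 1952 and 1911 CPM in the Aged group, with 2524, 2431 and 2049 CPM in Young. Young replicate 3 was the lowest of the Young libraries and stood nearest to Aged. The log2 fold change of Lox was -0.29 ± 0.07 (adjusted p = 0.0077, edgeR).

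Loxl2 went the other way. This enzyme, which acts on the type IV collagen of basement membranes among other substrates, had 188.3, 183.6 and 185.9 CPM in the Aged group, with 155.1, 143.8 and 125.8 CPM in Young. Every Aged library was above every Young one, with a log2 fold change of 0.38 ± 0.07 (adjusted p = 0.0019, edgeR). Loxl4 had 33.1, 35.2 and 35.2 CPM in the Aged group, with 45.2, 43.8 and 30.4 CPM in Young, so that the Aged libraries lay between Young replicate 3 and the other Young libraries. Its log2 fold change of -0.22 ± 0.13 did not pass (adjusted p = 0.19, edgeR), but without Young replicate 3 it was -0.39 ± 0.06 (adjusted p = 1.98e-05, edgeR), and with no filter on low counts -0.24 ± 0.08 (adjusted p = 0.020, edgeR).

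Both prolyl 4-hydroxylase subunits rose. P4ha2 had 221.8, 223.9 and 220.8 CPM in the Aged group, with 144.7, 141.2 and 147.4 CPM in Young. The 3 Aged libraries agreed closely and lay well above Young, with a log2 fold change of 0.61 ± 0.05 (adjusted p = 3.18e-06, edgeR). P4ha1, the catalytic subunit that most cells use, had 369.2, 358.9 and 361.7 CPM in the Aged group, with 310.0, 297.6 and 295.4 CPM in Young. The groups were separate but closer than for P4ha2, and the log2 fold change was 0.26 ± 0.05 (adjusted p = 0.0014, edgeR).

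The lysyl hydroxylases split. Plod2, which hydroxylates the telopeptide lysines that give rise to the more stable hydroxylysine-derived cross-links, showed the largest rise of the 10 genes. It had 207.3, 193.8 and 195.4 CPM in the Aged group, with 127.9, 122.9 and 110.4 CPM in Young, and a log2 fold change of 0.71 ± 0.06 (adjusted p = 8.81e-06, edgeR). All Aged libraries exceeded all Young libraries. Plod1, which hydroxylates lysines within the helix, had 167.2, 181.6 and 183.5 CPM in the Aged group, with 129.5, 130.9 and 122.7 CPM in Young (log2 fold change 0.46 ± 0.06, adjusted p = 1.1e-04, edgeR). Plod3, which can also add sugars to hydroxylysine, had 232.0, 244.4 and 233.5 CPM in the Aged group, with 263.8, 259.8 and 271.9 CPM in Young. Its fall was the smallest that passed among the 10, at -0.18 ± 0.05 (adjusted p = 0.016, edgeR). It no longer passed without Aged replicate 1 (adjusted p = 0.081) or Aged replicate 3 (adjusted p = 0.073, both by edgeR). With limma on log2 TPM, Plod3 (-0.16 ± 0.07, adjusted p = 0.14) and Lox (-0.26 ± 0.11, adjusted p = 0.12) did not pass.

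Because P4ha1, P4ha2, Plod1 and Plod3 have an entry among the RefSeq promoters at hand (5 of the 10 genes do, with Loxl4), the 250 bases before their start sites are shown, since 3 of them rose and 1 fell in Aged. Prolyl and lysyl hydroxylase genes are textbook targets of the hypoxia-inducible factors, so the core letters ACGTG and GCGTG were searched on both strands, overlaps allowed. Capitals mark each match. Sequences run 5′ to 3′ on the strand of the gene, with coordinates in build GRCm38.p6, an older build than the GRCm39 named for the deposited files.
P4ha1, chr10:59323046-59323295, plus strand: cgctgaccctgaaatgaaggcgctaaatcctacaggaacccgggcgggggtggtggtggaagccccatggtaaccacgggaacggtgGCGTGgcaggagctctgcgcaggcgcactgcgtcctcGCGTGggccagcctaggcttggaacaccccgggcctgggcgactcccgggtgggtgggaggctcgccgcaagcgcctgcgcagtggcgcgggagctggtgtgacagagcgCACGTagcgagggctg
P4ha2, chr11:54100674-54100923, plus strand: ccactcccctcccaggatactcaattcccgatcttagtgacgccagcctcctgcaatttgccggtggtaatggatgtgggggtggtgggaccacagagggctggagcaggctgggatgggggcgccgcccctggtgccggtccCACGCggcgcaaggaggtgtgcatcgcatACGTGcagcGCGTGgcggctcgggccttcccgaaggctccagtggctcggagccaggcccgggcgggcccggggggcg
Plod1, chr4:147936777-147937026, minus strand: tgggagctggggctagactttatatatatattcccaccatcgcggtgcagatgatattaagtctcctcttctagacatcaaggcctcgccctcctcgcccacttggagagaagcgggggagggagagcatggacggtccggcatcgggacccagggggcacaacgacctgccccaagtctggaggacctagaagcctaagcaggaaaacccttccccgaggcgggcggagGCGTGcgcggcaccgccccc
Plod3, chr5:136986769-136987018, plus strand: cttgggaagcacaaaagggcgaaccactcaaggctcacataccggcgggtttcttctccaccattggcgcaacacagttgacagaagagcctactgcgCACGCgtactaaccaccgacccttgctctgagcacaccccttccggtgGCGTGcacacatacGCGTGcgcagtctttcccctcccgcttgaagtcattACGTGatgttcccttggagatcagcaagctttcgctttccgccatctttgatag

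P4ha1 and P4ha2 each held 3 matches, Plod1 held 1 and Plod3 held 4, while Loxl4 held 1. Over 32851 promoters cut to the same length, 38.6% held at least 1 match, 16.6% one of ACGTG and 28.2% one of GCGTG. These 5 promoters were 55.6% to 76.0% G and C. The share over all promoters was not matched for base content, so the matches cannot be read against it. Whether hypoxia-inducible factors act on these genes here was not tested. A match is a run of letters and not a measured binding site.

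**Figure D2:**
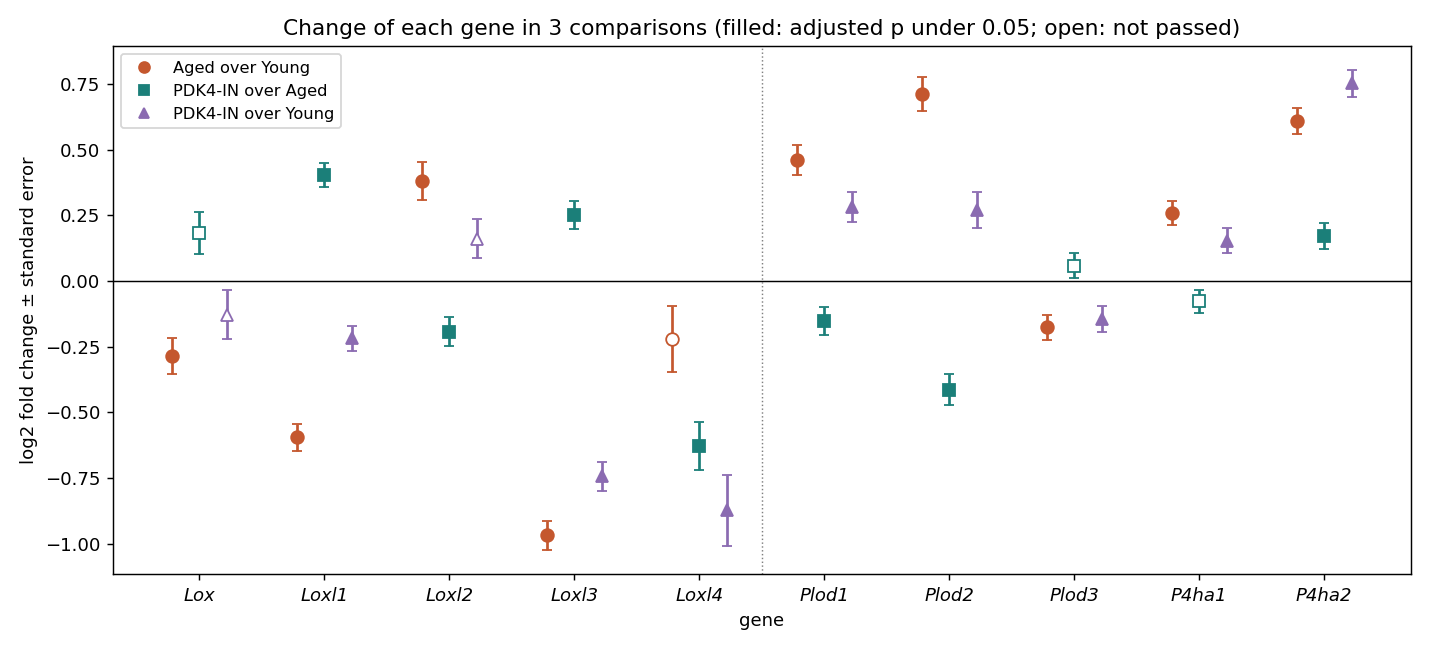
Log2 fold changes with standard errors of the 10 genes in 3 comparisons, fitted with edgeR; filled symbols passed an adjusted p under 0.05 and open symbols did not, and a dotted line parts the lysyl oxidases from the hydroxylases. Values for Aged over Young ran from -0.97 for Loxl3 to 0.71 for Plod2, and P4ha2 is above 0 in all 3 comparisons.

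The comparison of PDK4-IN with Aged addressed treatment of aged mice with the inhibitor. Of the 10 genes, 3 were higher in PDK4-IN (Loxl1, Loxl3 and P4ha2), 4 were lower (Loxl2, Loxl4, Plod1 and Plod2), and Lox, Plod3 and P4ha1 did not pass. Among 16275 genes tested, 23.9% were called higher and 25.7% lower, 49.6% in all, so the 7 of 10 members called stand beside a comparison in which nearly as many genes were called as not. The Aged libraries serve in this comparison and in that with Young, so a library value that is high or low there enters both. The median log2 fold change was 0.18 over the lysyl oxidases and -0.08 over the hydroxylases, beside -0.00088 over all genes.

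Loxl1 and Loxl3 were higher in PDK4-IN. Loxl1 had 302.4, 306.8 and 305.3 CPM in PDK4-IN, against the Aged values of 224.4 to 238.1 CPM given above. The PDK4-IN libraries agreed within 5 CPM and stood above all Aged ones, at a log2 fold change of 0.40 ± 0.05 (adjusted p = 3.74e-05, edgeR). Loxl3 had 93.9, 85.6 and 87.4 CPM in PDK4-IN, against 73.4 to 76.3 CPM in Aged (log2 fold change 0.25 ± 0.05, adjusted p = 0.0029, edgeR). The groups did not overlap, but the PDK4-IN values remained far under those of Young.

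Loxl4 and Loxl2 were lower. Loxl4 had 24.8, 23.1 and 18.9 CPM in PDK4-IN, against 33.1 to 35.2 CPM in Aged, and its log2 fold change of -0.63 ± 0.09 was the furthest from 0 of the 10 (adjusted p = 2.24e-04, edgeR). Counts behind it were 382 to 484 in PDK4-IN and 727 to 883 in Aged, the fewest of the 10 genes. Loxl2 had 176.6, 157.0 and 151.9 CPM in PDK4-IN, against 183.6 to 188.3 CPM in Aged. PDK4-IN replicate 1 lay closest to Aged, and the log2 fold change was -0.19 ± 0.06 (adjusted p = 0.014, edgeR). The call on Loxl2 was lost without Aged replicate 1 (adjusted p = 0.059), Aged replicate 3 (0.054) or PDK4-IN replicate 2 (0.073), and in a fit of all 9 libraries (0.050, all by edgeR). With limma on log2 TPM neither Loxl2 (adjusted p = 0.084) nor Loxl3 (adjusted p = 0.19) passed.

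For Lox, 1 library decided the size. It had 2574, 2028 and 1953 CPM in PDK4-IN, against 1911 to 1952 CPM in Aged. PDK4-IN replicate 1 was far above the rest, and replicates 2 and 3 were just above the Aged range. The log2 fold change was 0.18 ± 0.08 and did not pass (adjusted p = 0.075, edgeR). Without PDK4-IN replicate 1 it was 0.08 ± 0.02 (adjusted p = 0.0052), and without PDK4-IN replicate 3 it was 0.25 ± 0.07 (adjusted p = 0.012, both by edgeR). It also passed with DESeq2 (0.20 ± 0.08, adjusted p = 0.030), with upper quartile factors (0.23 ± 0.08, adjusted p = 0.025, edgeR), with no filter on low counts (0.18 ± 0.04, adjusted p = 2.72e-04, edgeR) and with the length trend removed (0.28 ± 0.05, adjusted p = 8.64e-04, edgeR), where the value was over 1.5 times that reported.

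Plod2 fell most among the hydroxylases. It had 160.0, 149.2 and 136.5 CPM in PDK4-IN, against 193.8 to 207.3 CPM in Aged, with no overlap and a log2 fold change of -0.41 ± 0.06 (adjusted p = 1.8e-04, edgeR). Plod1 had 159.6, 155.1 and 161.0 CPM in PDK4-IN, against 167.2 to 183.5 CPM in Aged (log2 fold change -0.15 ± 0.05, adjusted p = 0.033, edgeR), with no overlap. That call was lost without Aged replicate 2 (adjusted p = 0.13), Aged replicate 3 (0.15) or PDK4-IN replicate 2 (0.13), and with DESeq2 (0.066), upper quartile factors (0.13, edgeR) or the length trend removed (0.060, edgeR). Plod3 had 242.3, 253.1 and 239.5 CPM in PDK4-IN, overlapping the 232.0 to 244.4 CPM of Aged, and its 0.06 ± 0.05 did not pass (adjusted p = 0.33, edgeR). Without PDK4-IN replicate 1 the value for Plod3 was 0.10 ± 0.04 (adjusted p = 0.033, edgeR), and with the length trend removed it was 0.10 ± 0.04 (adjusted p = 0.053, or 0.049 with the replicate block as well, edgeR), whereas on log2 TPM it was -0.10 ± 0.06.

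The prolyl 4-hydroxylase subunits parted. P4ha2 had 238.5, 251.8 and 255.3 CPM in PDK4-IN, against 220.8 to 223.9 CPM in Aged. All PDK4-IN libraries were above Aged on this scale, at a log2 fold change of 0.17 ± 0.05 (adjusted p = 0.014, edgeR), whereas on the log2 TPM scale the difference was -0.02 ± 0.04. It also missed the threshold without Aged replicate 1 (adjusted p = 0.059), 2 (0.052) or 3 (0.057), or without PDK4-IN replicate 2 (0.059, all by edgeR). P4ha1 had 337.0, 352.2 and 337.4 CPM in PDK4-IN, against 358.9 to 369.2 CPM in Aged, and its -0.08 ± 0.04 did not pass (adjusted p = 0.17, edgeR). On log2 TPM, which moved the median of all genes by -0.12, P4ha1 was at -0.24 ± 0.05 and passed (adjusted p = 0.0065, limma), while with the length trend removed it was at 0.0072 ± 0.04 (adjusted p = 0.90, edgeR).

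The PDK4-IN libraries were also set against Young, in a fit of all 9 libraries. Of the 10 genes, 4 were higher in PDK4-IN (Plod1, Plod2, P4ha1 and P4ha2) and 4 were lower (Loxl1, Loxl3, Loxl4 and Plod3), while Lox and Loxl2 did not pass. Among 16553 genes tested, 13.3% were called higher and 15.7% lower, 29.0% in all. This comparison shares its libraries with both others. P4ha2 differed most upwards, at 0.75 ± 0.05 (adjusted p = 1.14e-06, edgeR), and Loxl4 most downwards, at -0.87 ± 0.14 (adjusted p = 6.31e-04, edgeR). These were the genes whose PDK4-IN libraries lay outside the range of both other groups, P4ha2 above it and Loxl4 below it.

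Loxl3 stayed at -0.74 ± 0.06 against Young (adjusted p = 2.49e-06) and Loxl1 at -0.22 ± 0.05 (adjusted p = 0.0058, both by edgeR). Their PDK4-IN libraries lay between those of the other groups. So did those of Plod1, at 0.28 ± 0.06 (adjusted p = 0.0029), and Plod2, at 0.27 ± 0.07 (adjusted p = 0.012, both by edgeR). P4ha1 was at 0.15 ± 0.05 (adjusted p = 0.027) and Plod3 at -0.15 ± 0.05 (adjusted p = 0.043, both by edgeR). Loxl2, at 0.16 ± 0.07 (adjusted p = 0.12), and Lox, at -0.13 ± 0.09 (adjusted p = 0.32, both by edgeR), had PDK4-IN libraries that overlapped Young.

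Single libraries held several of these calls. Lox passed without PDK4-IN replicate 1 (-0.27 ± 0.07, adjusted p = 0.012). P4ha1 no longer passed without Young replicate 1 (adjusted p = 0.057), Young replicate 2 (0.11), PDK4-IN replicate 2 (0.15) or PDK4-IN replicate 3 (0.068). Plod2 no longer passed without PDK4-IN replicate 2 (adjusted p = 0.058), nor Plod3 without Young replicate 1 (0.065) or PDK4-IN replicate 3 (0.11), all by edgeR. With limma on log2 TPM, Plod1 (adjusted p = 0.12), Plod2 (0.33) and P4ha1 (0.66) did not pass, while with upper quartile factors Plod3 did not (0.21) and Loxl2 did (0.035, edgeR). In a fit of the 6 libraries of these groups, neither P4ha1 (adjusted p = 0.078) nor Plod3 (0.125, both by edgeR) passed. With the length trend removed, Loxl2 passed (0.038) and Plod3 did not (0.065, both by edgeR). With no filter on low counts, P4ha1 (0.145) and Plod3 (0.089) did not pass and Lox did (0.049), and Plod3 did not pass with library totals only (0.094, all by edgeR).

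The make-up of each family was described as a share of its summed TPM in a library, with no test. Lox held 71.8 ± 2.46% of the lysyl oxidase sum in PDK4-IN, 71.6 ± 0.52% in Aged and 70.9 ± 1.21% in Young (SD, n = 3 each), and the means differed by less than the SD of Young. Loxl2 held 9.04 ± 0.55% in PDK4-IN, 10.8 ± 0.50% in Aged and 6.69 ± 0.14% in Young. Loxl3 held 3.73 ± 0.29% in PDK4-IN, 3.46 ± 0.16% in Aged and 5.55 ± 0.17% in Young. Among the lysyl hydroxylases, Plod2 held 21.1 ± 1.80% in PDK4-IN, 25.9 ± 1.98% in Aged and 17.7 ± 1.18% in Young. Plod3, the largest component, held 53.6 ± 1.89% in PDK4-IN, 47.8 ± 1.65% in Aged and 61.3 ± 1.66% in Young.

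Ratios of 2 genes within a library do not depend on how libraries are scaled. They do shift with the length trend where the 2 genes differ in length, and no trend was removed from them. The ratio of Loxl2 to Loxl3 counts was 1.88, 1.83 and 1.74 in PDK4-IN, 2.56, 2.42 and 2.43 in Aged and 1.04, 0.96 and 0.91 in Young. The 3 groups did not overlap, and PDK4-IN lay in between. The ratio of P4ha2 to P4ha1 counts was 0.71, 0.71 and 0.76 in PDK4-IN, 0.60, 0.62 and 0.61 in Aged and 0.47, 0.47 and 0.50 in Young. Here the order was another one, with PDK4-IN highest. P4ha2 is the shorter gene, at 2230 bases against 4043 bases for P4ha1, and the part of the length trend in this order was not tested. The ratio of Plod2 to Plod3 averaged 0.61 ± 0.05 in PDK4-IN, 0.84 ± 0.05 in Aged and 0.45 ± 0.04 in Young.

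The enzymes were also set against their substrate Col1a1, the main chain of type I collagen. The ratio of Lox to Col1a1 counts was 0.91, 0.74 and 0.76 in PDK4-IN, 0.86, 0.86 and 0.85 in Aged and 0.80, 0.77 and 0.70 in Young. The ratio of Lox to Col3a1, the chain of type III collagen, was 11.8, 9.15 and 9.76 in PDK4-IN, 7.80, 8.04 and 7.63 in Aged and 8.74, 8.45 and 7.18 in Young. The Aged libraries were above the Young ones relative to Col1a1 but overlapped them relative to Col3a1, where all PDK4-IN libraries were higher than the rest. Col1a1 itself had a log2 fold change of -0.47 in Aged over Young and 0.27 in PDK4-IN over Aged. The ratio of Plod2 to Col1a1 was 0.055 ± 0.0016 in PDK4-IN, 0.088 ± 0.0033 in Aged and 0.039 ± 0.0015 in Young. The ratio of P4ha2 to Col1a1 was 0.092 ± 0.0077 in PDK4-IN, 0.098 ± 0.00031 in Aged and 0.047 ± 0.0029 in Young. Relative to Col1a1, P4ha2 in PDK4-IN overlapped Aged. Elastin averaged 0.86 ± 0.15 CPM in PDK4-IN, 0.97 ± 0.47 CPM in Aged and 0.66 ± 0.15 CPM in Young, too few counts for a ratio to be read.

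**Figure D3:**
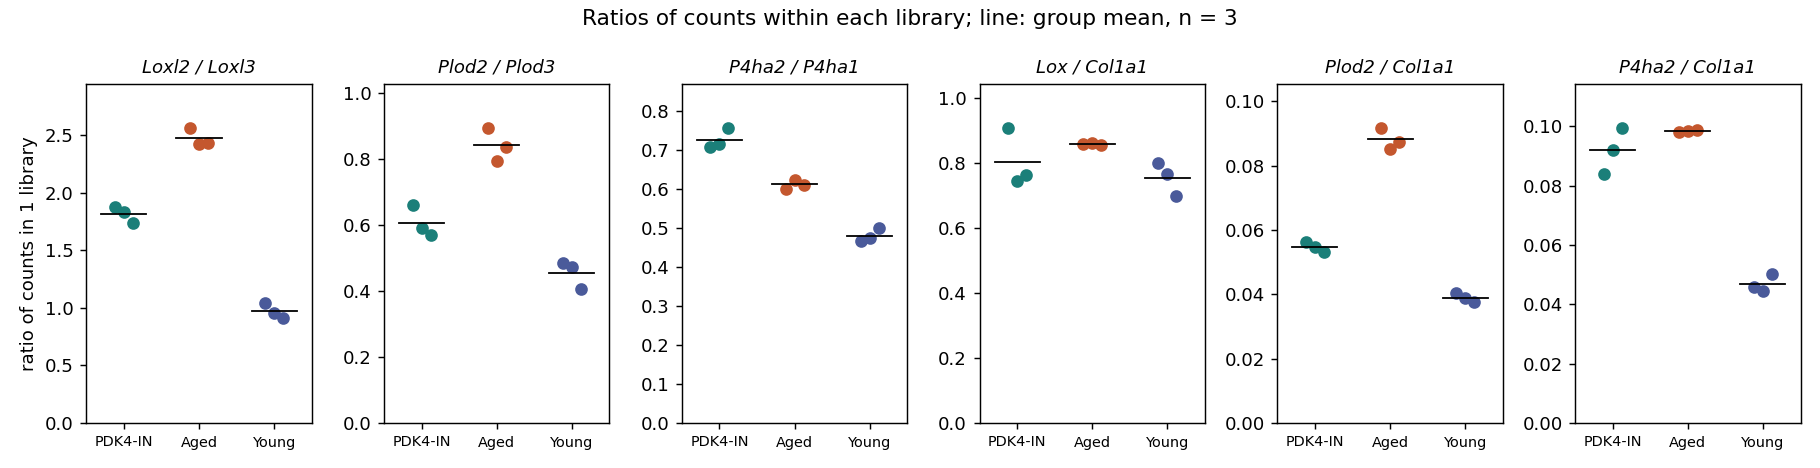
Ratios of counts of 2 genes within each library (vertical axes, starting at 0) for PDK4-IN, Aged and Young; points are libraries and lines are group means (n = 3). Aged was highest for Loxl2 over Loxl3, Plod2 over Plod3 and Plod2 over Col1a1, and PDK4-IN was highest for P4ha2 over P4ha1.

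The wider pathway was read from 67 other genes in 8 lists, whose members were chosen with earlier results of these data known. In Aged over Young, 22 of 65 tested were higher and 29 lower, with a median log2 fold change of -0.15. In PDK4-IN over Aged, 26 of 66 were higher and 21 lower (median 0.03), and in PDK4-IN over Young 13 of 66 were higher and 17 lower (median -0.02). The shares over all genes are those given above for each comparison, and signed values in parentheses below are log2 fold changes.

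The other prolyl hydroxylases and their partners moved unevenly. P4ha3, another catalytic subunit of prolyl 4-hydroxylase, was lower in both comparisons, at 60.8 ± 7.22 CPM in PDK4-IN, 74.0 ± 1.79 CPM in Aged and 98.8 ± 16.6 CPM in Young (log2 fold change -0.43, adjusted p = 0.0081 in Aged over Young, and -0.28, adjusted p = 0.0091 in PDK4-IN over Aged, edgeR). P4hb, the protein disulfide isomerase that forms the other subunit, averaged 1019 ± 23.4 CPM in PDK4-IN, 988 ± 9.93 CPM in Aged and 987 ± 28.3 CPM in Young and passed in neither. The prolyl 3-hydroxylases P3h1 and P3h3 and the partner Crtap fell in Aged over Young (-0.44, -0.34 and -0.48) and rose in PDK4-IN over Aged (0.33, 0.15 and 0.45), though P3h3 was at -0.0039 on the log2 TPM scale in that comparison. P3h2, a low prolyl 3-hydroxylase gene at 5.20 ± 1.41 CPM in PDK4-IN, 6.80 ± 1.26 CPM in Aged and 4.34 ± 1.20 CPM in Young, rose in Aged (0.64, adjusted p = 0.036, edgeR), but not without Young replicate 1 (adjusted p = 0.092), Aged replicate 1 (0.16) or Aged replicate 3 (0.093), with the replicate block (0.058), in the fit of all 9 libraries (0.057, all by edgeR) or on log2 TPM (0.28, limma). Of the 8 genes of this list, 1 was higher and 5 lower in Aged over Young, and 5 higher and 1 lower in PDK4-IN over Aged.

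Collagen galactosyltransferases add sugar to the hydroxylysine that the Plod enzymes make. Colgalt1 averaged 164 ± 3.13 CPM in PDK4-IN, 181 ± 5.07 CPM in Aged and 194 ± 8.73 CPM in Young, and was lower in PDK4-IN over Aged (-0.14, adjusted p = 0.030, edgeR) while its -0.11 in Aged over Young did not pass. Colgalt2 was near the limit of detection, at 0.88 ± 0.51 CPM in PDK4-IN, 1.72 ± 0.52 CPM in Aged and 0.38 ± 0.19 CPM in Young. The collagen chaperones Serpinh1 and Fkbp10 fell in Aged (-0.51 and -0.44) and rose in PDK4-IN over Aged (0.41 and 0.37). In this list of 10, 2 were higher and 3 lower in Aged over Young, and 4 higher and 3 lower in PDK4-IN over Aged.

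The substrates and scaffolds fell together in Aged, with 10 of 11 lower and none higher (median -0.53). In PDK4-IN over Aged, 7 of the 11 were higher and 2 lower (median 0.25). Fbln5, which brings Loxl1 to elastic fibres, averaged 74.7 ± 0.36 CPM in PDK4-IN, 46.1 ± 2.95 CPM in Aged and 135 ± 10.8 CPM in Young (-1.56 in Aged over Young, and 0.71 in PDK4-IN over Aged). Postn, a matricellular protein that binds Bmp1 and aids Lox activation, averaged 396 ± 25.1 CPM in PDK4-IN, 199.5 ± 3.62 CPM in Aged and 370.0 ± 19.6 CPM in Young (-0.90 and 1.00). Col3a1 and Fbn1 were the 2 that fell in PDK4-IN over Aged (-0.20 and -0.28).

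The genes of copper and ascorbate supply and those of the hypoxia response were mostly higher in Aged. Slc31a1, the copper importer, averaged 56.5 ± 3.71 CPM in PDK4-IN, 84.7 ± 3.40 CPM in Aged and 56.0 ± 1.75 CPM in Young (0.58 in Aged over Young, and -0.58 in PDK4-IN over Aged). Slc23a2, an ascorbate transporter, was 0.69 in Aged over Young and -0.90 in PDK4-IN over Aged. Of this list, 3 of 4 tested were higher in Aged over Young, and 1 of 5 was higher and 3 were lower in PDK4-IN over Aged. Of 14 HIF hydroxylases and hypoxia targets, 11 were higher and none lower in Aged (median 0.71), and 1 was higher and 7 lower in PDK4-IN over Aged (median -0.22). Egln3, an oxygen-dependent hydroxylase of HIF alpha, averaged 35.3 ± 2.01 CPM in PDK4-IN, 66.7 ± 3.20 CPM in Aged and 15.6 ± 0.53 CPM in Young. The macrophage markers moved with these lists in the same comparisons, and their part was not tested.

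Of 7 procollagen proteinases and enhancers tested, which free collagen and Lox of their propeptides, 2 were higher and 3 lower in Aged over Young, and 3 higher and 2 lower in PDK4-IN over Aged. Pcolce, an enhancer of Bmp1 on procollagen, averaged 443 ± 19.9 CPM in PDK4-IN, 298 ± 4.04 CPM in Aged and 426 ± 10.4 CPM in Young. Tll1, a proteinase related to Bmp1, averaged 25.5 ± 2.41 CPM in PDK4-IN, 27.9 ± 0.60 CPM in Aged and 49.2 ± 5.65 CPM in Young, and fell in Aged over Young (-0.83). Bmp1 itself did not pass in Aged over Young (-0.08) and was slightly higher in PDK4-IN over Aged (0.19).

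**Figure D4:**
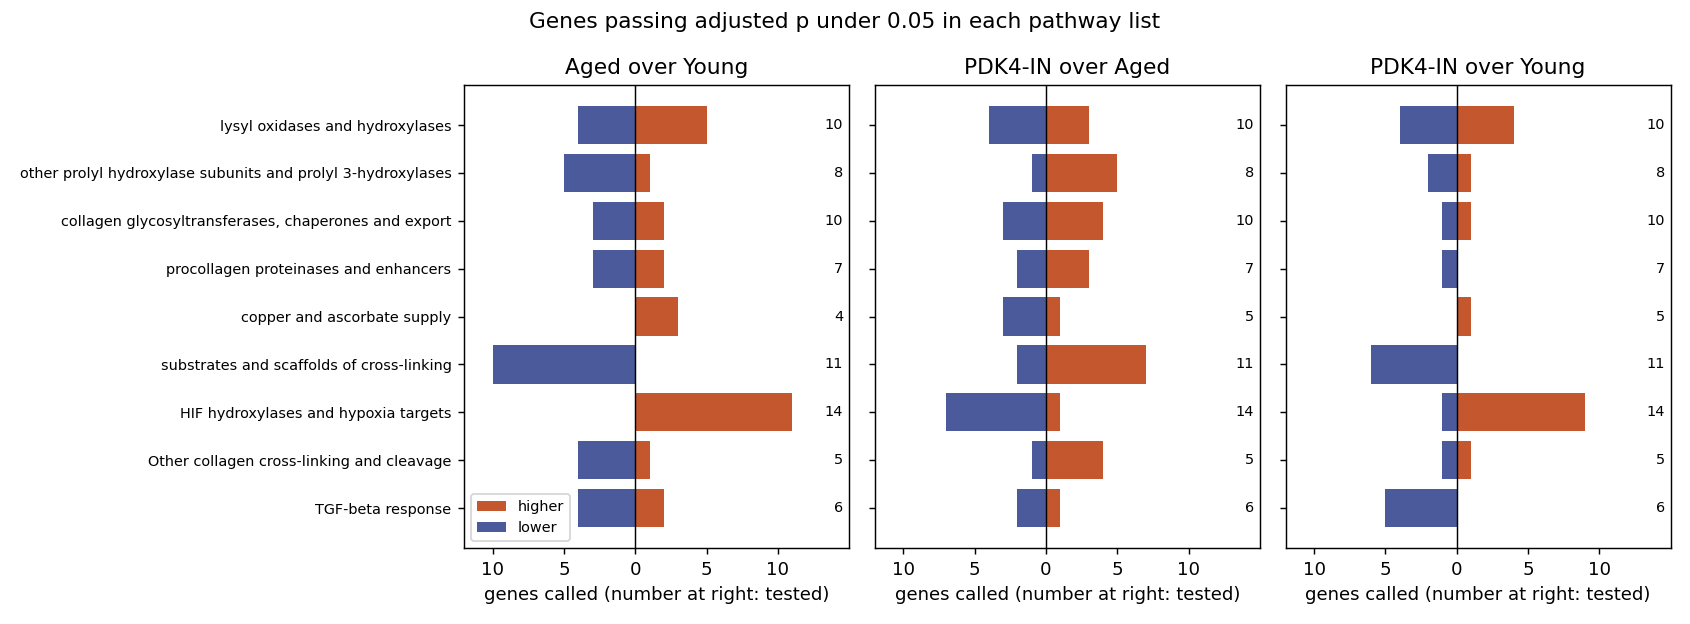
Number of genes called higher (right of 0) and lower (left of 0) at an adjusted p under 0.05 in each pathway list, for 3 comparisons, with the number tested at the right edge. The substrates show 10 of 11 genes lower in Aged over Young, and the hypoxia list 11 of 14 higher.

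The genes with the most similar profile to each member were listed as a description, by the root mean square difference of log2 CPM centred over the 9 libraries among 12755 other genes. Oxr1 and Akap12 were nearest to Lox (0.044 and 0.056 on the log2 scale), Kctd10 and Gne to Loxl1 (0.043 and 0.044), and Rab5b and Dcbld2 to Loxl2 (0.041 and 0.047). Msrb3 and Fgfr2 were nearest to Loxl3 (both 0.054), and Stard13 and Unc5c to Loxl4 (0.062 and 0.082). Of the hydroxylases, Slc29a1 and Ifngr1 were nearest to Plod1 (0.051 and 0.052), Znrf2 and Cd47 to Plod2 (0.043 and 0.060), and Pwp1 and Usp14 to Plod3 (0.021 and 0.032). Mettl4 and Ubap1 were nearest to P4ha1 (0.032 and 0.037), and Pdpn and Lipe to P4ha2 (0.052 and 0.063). None of these genes stands in the pathway lists, and Pdpn is one of the alveolar type 1 markers.

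Some counts may be shared with neighbours. Loxl3 overlaps Htra2, and Plod3 overlaps Znhit1, by 535 and 529 exonic bases on the opposite strand in GENCODE M21, and strand-specific counting is not stated for these libraries, although the study's methods name a stranded kit in a section that opens on human cell lines. Htra2 had 59.2 to 68.8 CPM in PDK4-IN, 48.6 to 53.9 CPM in Aged and 66.8 to 73.4 CPM in Young, and was lowest in Aged, as Loxl3 was. Znhit1 had 44.5 to 52.8 CPM in PDK4-IN, 34.0 to 36.0 CPM in Aged and 32.7 to 40.3 CPM in Young. Loxl2, Loxl3 and Plod2 had fractional counts in all 9 libraries and Plod3 in 8, so part of their reads was assigned by estimate. The values of Loxl3 and Plod3 are uncertain to the extent that such reads belong to the neighbour.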

How the data were processed

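The authors sequenced RNA of combined captured cells as paired reads, with 3 libraries for each group, and their processing notes name Bowtie 0.12.2 and build GRCm39. The study's RNA-seq methods, written for human cell lines and a human genome, name RSEM, Bowtie and a stranded kit, and end with the deposit of these data. Whether the same quantifier and kit served the mouse libraries, and with which mouse annotation, they do not say. Per gene, the authors deposited expected counts without normalisation, and TPM, which the authors scaled by transcript length and depth. Fold changes, p-values and group means made by the authors were not used. Expected counts were rounded to whole numbers and tested with edgeR 4.0.16 in R 4.3.3 (filterByExpr, TMM, quasi-likelihood fit), with an adjusted p under 0.05 as the call. PDK4-IN over Young was fitted on all 9 libraries, and each of the other comparisons on the 6 libraries of its groups. Alternatives were DESeq2 1.42.0, limma 3.58.1 on log2(TPM + 0.5), other scalings and filters, a replicate block, removal of a length trend, and leaving out each library. Named genes were the 10 members, the 2 nearest profiles of each, up to 2 called genes each way per list with the lowest p, and P4ha3, P3h1, P3h2, P3h3, Colgalt1 and Colgalt2. P4hb, Bmp1, elastin, Htra2, Znhit1, Tcf21 and Col1a1 were added for description after their values were seen. Members and lists were chosen with earlier results of these data known. The main edgeR fit was tested on counts simulated for Aged over Young, and the other fits were not tested in this way.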

Additional observations from a re-analysis of the deposited data

How the results depend on the processing

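The members had 382 counts or more in every library, and the p-values rest on the spread between 3 libraries a group. In Aged over Young, the directions of all 10 genes held under every alternative. In PDK4-IN over Aged, P4ha1 turned to 0.0072 with the length trend removed and to 0.0061 with the replicate block as well, and on log2 TPM P4ha2 turned to -0.020, Plod3 to -0.10 and P3h3 to -0.0039, where that scale moved the median of all genes by -0.12. In PDK4-IN over Young, the value of P3h2 was -0.057 on log2 TPM and ran from -0.026 (without PDK4-IN replicate 2) to 0.45 when leaving out 1 library at a time. The causes were not tested. Limma on log2 TPM called 2 members lower in Aged over Young against 4 as reported, 1 higher in PDK4-IN over Aged against 3, 1 higher in PDK4-IN over Young against 4, and 2931 genes in PDK4-IN over Young against 4796. Of the calls, 31.1% were higher on log2 TPM against 48.2% as reported in PDK4-IN over Aged, and 33.0% on log2 TPM and 58.2% with upper quartile factors against 45.9% in PDK4-IN over Young. Leaving out 1 library at a time gave 2 to 5 members higher and 2 to 4 lower in PDK4-IN over Aged, with the lowest of the lower counts without Aged replicate 3 or PDK4-IN replicate 2 and 5 higher without PDK4-IN replicate 1. In PDK4-IN over Young it gave 2 to 4 members higher, with 2 without PDK4-IN replicate 2, and 3100 to 6176 genes in all, with 3100 without Young replicate 1, 3146 without Young replicate 2 and 3122 without PDK4-IN replicate 2. Correlations between same-numbered libraries of different groups ran from -0.04 to 0.18, and those between differently numbered ones from -0.23 to 0.13. The labels do not say whether libraries of the same number share anything, and these overlapping ranges cannot settle it. With the replicate block alone, 6081 genes passed in Aged over Young, 7605 in PDK4-IN over Aged and 5371 in PDK4-IN over Young, with the same numbers of members called in each direction, while the replicate block with the length trend removed called 5 members higher in PDK4-IN over Aged.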

Other observations

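Other enzymes of collagen turnover and TGF-beta response genes were read from the same fits. Tgm2, a transglutaminase that cross-links matrix proteins by another reaction, averaged 17.4 ± 1.27 CPM in PDK4-IN, 54.2 ± 1.71 CPM in Aged and 19.5 ± 3.80 CPM in Young (SD, n = 3 each), with log2 fold changes of 1.46 in Aged over Young and -1.63 in PDK4-IN over Aged. Ctsk, a protease that cleaves helical collagen, was at -1.20 and 1.08 in the same comparisons, and Mmp2, a gelatinase, at -0.47 and 0.64. Of the TGF-beta response genes, Tgfb1 and Tgfbi were higher in Aged over Young (0.53 and 1.39), while Ccn2 was lower (-1.01). In PDK4-IN over Aged, Tgfb1 and Tgfbi were lower (-0.40 and -1.75) and Ccn2 was higher (0.58). The macrophage markers thus moved in the same direction as Tgm2, Tgfb1 and Tgfbi in both comparisons. They moved in the opposite direction to Ctsk, Mmp2 and Ccn2. The part of macrophages in these changes was not tested.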
